A study of Mus musculus with 8 samples.

Results

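Intronic H3K9ac sites away from promoters were the stretches of acetylated chromatin inside protein-coding genes that touched no exon and no gene start. The peaks of 6 H3K9ac ChIP-seq lists were merged where they overlapped or touched, which gave 64432 regions. Of these, 37691 had a peak in at least 2 lists and are called consensus sites. An intronic site was a consensus site that lay wholly within a protein-coding gene body of the GENCODE M21 annotation (mouse build mm10), overlapped no annotated exon and was more than 2 kb from every annotated transcription start site (TSS). The rule kept 9271 sites, which is 24.6% of the consensus sites (95% Wilson interval, 24.2 to 25). Of the remaining sites, 14143 lay within 1 kb of a coding TSS (promoter sites), 7229 lay outside all genes and more than 2 kb from a TSS (intergenic sites) and 7048 fell in none of these classes.

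The libraries came from whole bone marrow (BM) cells of C57BL/6 mice, all of which carried the *NUP98-HOXD13* transgene, a model of myelodysplastic syndrome that can progress to acute myeloid leukaemia. The mice carried *GFI1-36S*, the common form of GFI1, *GFI1-36N*, a variant with asparagine in place of serine, or *GFI1-KD*, an allele with lowered expression of GFI1. The first 2 alleles place human *GFI1* cDNA in the mouse locus. The mice received curcumin by weekly intraperitoneal injection at 20 mg/kg or vehicle. Each of the 6 groups had 1 library, so differences between libraries have no replicate check, no test was made, and the intervals given cover counting error only. Ages were not given in the sources used here, nor was the number of mice behind a library, and the labels' input and IgG samples had no peak list.

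Histone acetyltransferases place acetyl groups on lysine 9 of histone H3 at active promoters and at active enhancers, and deacetylases remove them. GFI1 is a repressor that brings deacetylases and the demethylase LSD1 to its target genes in blood progenitors. Introns, the first ones above all, hold many of the enhancers that switch blood genes on in 1 lineage and leave them off in another, among them enhancers of *Runx1*, *Erg*, *Zfpm1* and, within the neighbouring gene *Nprl3*, the alpha-globin genes.

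The 6 stretches printed here show the range of these sites. Each is 300 bases around the highest point (summit) of the strongest peak, on the plus strand of mm10 (GRCm38.p6, sequence from RefSeq). Capitals mark letters that match a motif of ETS, GATA, RUNX, C/EBP, AP-1, E-box, IRF or GFI1 factors on either strand, as spelled out further on. The *Arid1b* site (chr17:5189888-5190187) was among the strongest and holds 16 CpG dinucleotides. The strongest *Runx1* and *Erg* sites (chr16:92715025-92715324 and chr16:95439491-95439790) are shown as textbook progenitor genes. The second *Runx1* stretch (chr16:92801213-92801512) belongs to a site that overlaps a stem-cell enhancer annotated by RefSeq. The *Gfi1* stretch (chr5:107718505-107718804) is the only intronic site of the gene altered in these mice. The *Nprl3* stretch (chr11:32245246-32245545) belongs to a site that overlaps an annotated alpha-globin enhancer, and this site and the second *Runx1* site were chosen after their values were seen.
Arid1b: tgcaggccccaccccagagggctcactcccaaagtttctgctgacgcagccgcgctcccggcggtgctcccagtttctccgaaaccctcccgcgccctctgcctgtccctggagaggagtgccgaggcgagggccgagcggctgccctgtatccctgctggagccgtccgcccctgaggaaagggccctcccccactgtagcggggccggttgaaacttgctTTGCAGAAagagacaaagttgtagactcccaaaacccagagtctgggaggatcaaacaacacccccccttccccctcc
Runx1, strongest site: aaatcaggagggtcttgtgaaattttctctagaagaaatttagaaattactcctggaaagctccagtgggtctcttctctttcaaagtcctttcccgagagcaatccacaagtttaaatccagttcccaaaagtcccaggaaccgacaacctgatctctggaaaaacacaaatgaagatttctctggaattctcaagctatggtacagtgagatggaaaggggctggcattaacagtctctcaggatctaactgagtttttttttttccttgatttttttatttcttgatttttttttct
Runx1, annotated enhancer: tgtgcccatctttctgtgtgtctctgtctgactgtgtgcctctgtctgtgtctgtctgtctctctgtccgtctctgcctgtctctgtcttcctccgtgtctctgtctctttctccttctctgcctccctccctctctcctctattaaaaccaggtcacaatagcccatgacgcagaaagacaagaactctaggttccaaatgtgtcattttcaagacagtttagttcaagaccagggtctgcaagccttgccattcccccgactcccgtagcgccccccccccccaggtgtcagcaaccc
Erg: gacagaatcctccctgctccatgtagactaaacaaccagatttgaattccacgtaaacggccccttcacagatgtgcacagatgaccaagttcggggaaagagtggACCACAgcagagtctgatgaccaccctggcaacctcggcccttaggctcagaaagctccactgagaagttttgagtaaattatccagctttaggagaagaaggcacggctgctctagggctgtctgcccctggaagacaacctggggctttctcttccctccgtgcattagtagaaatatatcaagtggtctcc
Gfi1: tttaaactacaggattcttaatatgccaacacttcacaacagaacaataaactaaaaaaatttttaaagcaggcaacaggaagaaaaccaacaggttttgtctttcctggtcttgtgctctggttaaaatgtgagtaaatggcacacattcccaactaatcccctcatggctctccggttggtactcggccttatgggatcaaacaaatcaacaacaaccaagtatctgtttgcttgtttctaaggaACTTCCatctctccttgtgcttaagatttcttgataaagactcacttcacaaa
Nprl3: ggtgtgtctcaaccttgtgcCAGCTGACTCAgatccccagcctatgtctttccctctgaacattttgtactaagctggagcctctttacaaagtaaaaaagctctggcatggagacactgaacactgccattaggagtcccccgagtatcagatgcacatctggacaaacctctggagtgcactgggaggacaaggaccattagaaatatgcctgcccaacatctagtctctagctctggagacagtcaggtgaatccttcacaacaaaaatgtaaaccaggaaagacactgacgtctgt

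The CpG-rich *Arid1b* stretch stands beside CpG-poor ones. The *Gfi1*, *Nprl3* and strongest *Runx1* stretches hold 2 CpG each, and the *Erg* and second *Runx1* stretches hold 6 each. The *Nprl3* stretch holds an E-box at base 21 that overlaps an AP-1 match at base 25, the *Erg* stretch a RUNX match at base 107, the *Gfi1* stretch an ETS match at base 248 and the *Arid1b* stretch a C/EBP match at base 223, counted from the first base printed. Neither *Runx1* stretch holds a match to any of these motifs.

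The peak lists held from 20354 to 49213 peaks. The shortest was that of the library labelled *GFI1-36S* curcumin, which stood apart from the other 5. It had no promoter peak at the myeloid genes *Mpo*, *Elane* and *Itgam* or at the progenitor genes *Kit* and *Cd34*, all of which had one in every other library. It had a promoter peak at 22 of 22 T lineage genes (7 to 14 in the other libraries), at 5 of 20 myeloid genes (17 or 18 elsewhere) and at 5 of 18 erythroid and megakaryocytic genes (11 to 17 elsewhere). Over all promoter sites, 67.3% had a peak in this library and 84.3% to 94.4% in the others. The library also held the only 3 peaks on chromosome Y. For *GFI1-36S*, the deposited lists are named with treatments the other way round from their samples. Here a library takes its treatment from its label, and each statement on *GFI1-36S* holds for the libraries as labelled. Judging by list names alone, the *GFI1-36N* vehicle sample would be heterozygous and the curcumin sample homozygous, which no label says. Genotype dose and treatment then cannot be told apart in that pair. Of the bone marrow markers, the promoters of *Ptprc* and *Spi1* were marked in every library. Among 6 markers of other tissues *Cdh1* alone had one, in 5 libraries.

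An intronic site was seldom shared by all libraries. Only 592 of the 9271 sites (6.39%) had a peak in all 6 lists, against 63.7% of promoter sites and 9.49% of intergenic sites. The most frequent pattern, with 2008 sites (21.7%), was a peak in every library but *GFI1-36S* curcumin, and 3263 sites had a peak in 2 lists only, the fewest the rule allows. The second most frequent pattern was a peak in the *GFI1-36S* and *GFI1-KD* vehicle libraries alone, with 674 sites, or 7.27% of intronic sites beside 4.09% of all consensus sites. Without *GFI1-36S* curcumin the rule gave 9066 sites.

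By library, the share of intronic sites with a peak was 69.4% in *GFI1-36S* vehicle (95% interval, 68.4 to 70.3) and 13.6% in *GFI1-36S* curcumin (13.0 to 14.4). It was 69.6% in *GFI1-36N* vehicle (68.6 to 70.5) and 76.3% in *GFI1-36N* curcumin (75.4 to 77.2). The *GFI1-KD* libraries gave 71.4% with vehicle (70.4 to 72.3) and 46.1% with curcumin (45.1 to 47.1). The 3 vehicle libraries were thus close to each other, and the 3 curcumin libraries spread widely. Promoter sites ranged less, from 67.3% in *GFI1-36S* curcumin to 94.4% in *GFI1-36N* curcumin. Intergenic sites ranged as widely as intronic ones, from 14.7% to 84.2% in the same libraries.

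**Figure D1:**
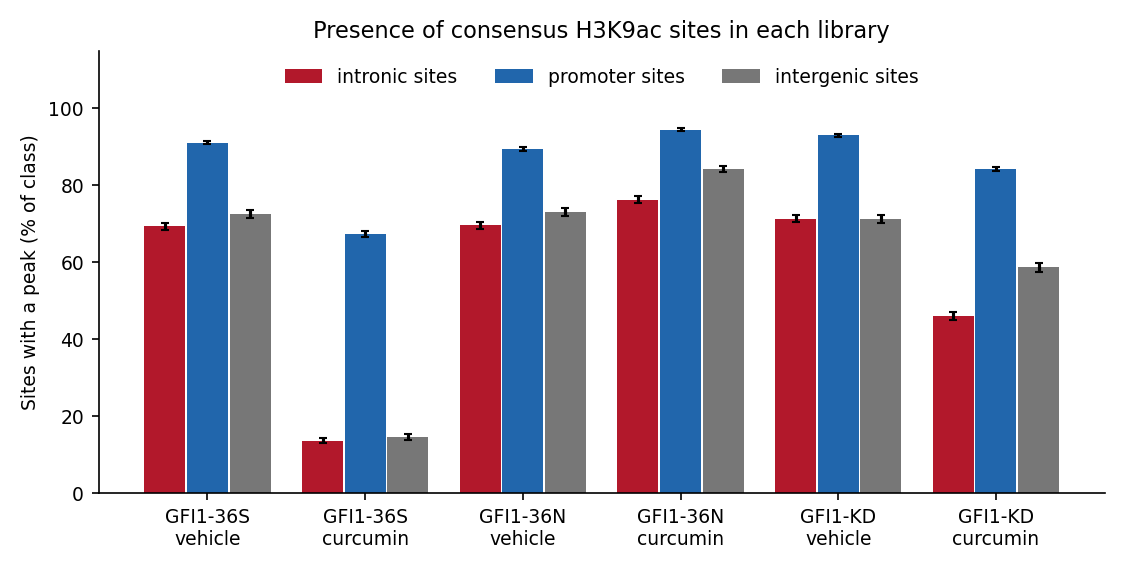
Share of consensus sites with a peak in each library (%), for intronic, promoter and intergenic sites. Bars are shares of all sites of the class and error bars 95% Wilson intervals. Intronic sites run from 13.6% in GFI1-36S curcumin to 76.3% in GFI1-36N curcumin and intergenic sites from 14.7% to 84.2%. Promoter sites stay at 67.3% or above.

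Intronic sites were weak, and intergenic sites were only slightly stronger. Strength was read as the fold enrichment at the summit (column 7 of the lists), which is the pileup over the local background as the peak caller gave it. The median fold enrichment of intronic sites was 4.05 in *GFI1-36S* vehicle, 4.08 in *GFI1-36S* curcumin, 3.88 in *GFI1-36N* vehicle, 3.98 in *GFI1-36N* curcumin, 4.10 in *GFI1-KD* vehicle and 4.48 in *GFI1-KD* curcumin. Promoter sites had medians between 11.6 and 17.5, and intergenic sites between 4.32 and 4.82. The intronic medians lay close together, although the number of sites behind them ranged from 1265 to 7074. The summit of a typical intronic site held a median of 23 to 30 ChIP fragments, recovered from the enrichment and p-value of each peak. Promoter sites held 67 to 128 and intergenic sites 26 to 34. At the counts of intronic sites a missing peak means that none was detectable at this depth, not that acetylation was absent. Ranked within its own list from 0 (weakest) to 100, the median intronic site stood between 26.3 and 43.7. From 10.6% to 39.7% of intronic sites were above the median of their list, with *GFI1-36S* curcumin lowest and *GFI1-36N* curcumin highest.

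**Figure D2:**
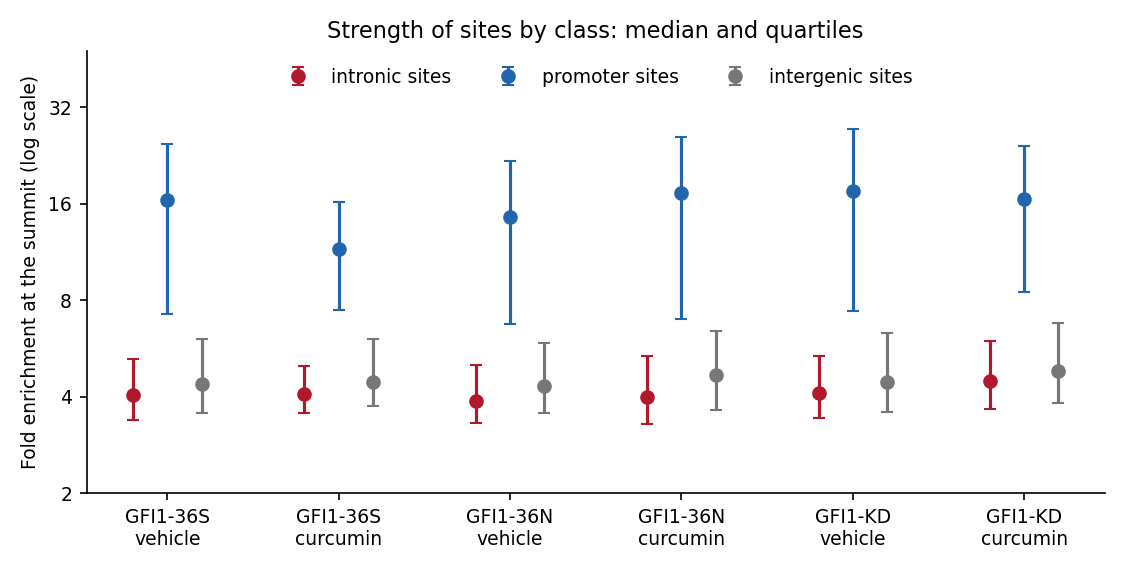
Fold enrichment at the summit (log scale) of intronic, promoter and intergenic sites with a peak in each library. Points are medians and bars the quartiles over sites. Intronic medians lie between 3.88 and 4.48 in the 6 libraries, intergenic medians between 4.32 and 4.82 and promoter medians between 11.6 and 17.5.

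Sites found in more libraries were also stronger and wider. The median width rose from 450 bp for sites in 2 lists to 1543 bp for sites in all 6, with a median of 682 bp over all sites (185 to 12645 bp). In *GFI1-KD* vehicle the median rank was 24.2 for sites in 2 lists and 64.7 for sites in 6, and in *GFI1-36N* vehicle 21.4 and 66.1. Presence and strength come from the same peak calls and are not independent. A site spans all its overlapping peaks, so its width can grow with the number of lists and is not independent of it either.

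Many sites lay near a gene start in spite of the 2 kb limit. The median distance to the nearest TSS was 8.62 kb (quartiles, 4.44 and 17.2), 55.2% of sites were within 10 kb and 4.41% were farther than 50 kb. Of 9047 sites placed in an intron of the longest coding transcript of their gene, 4133 were in the first intron, 45.7% (44.7 to 46.7), whereas first introns held 25.7% of the bases where a site was possible. The first-intron share was between 44.0% and 48.8% in the 6 libraries. Another intronic site lay within 5 kb of 52.6% of sites, and no expected share was computed. With peaks up to 500 bp apart merged, 7147 sites were left, so close neighbours are part of this share. The *GFI1-KD* libraries varied most with distance. With curcumin the share of sites with a peak was 42.3% at 2 to 5 kb from a TSS and 60.6% beyond 50 kb, while with vehicle it went the other way, from 73.9% to 61.6%. Per megabase of room, the X chromosome held 2.12 sites and the autosomes from 7.95 (chromosome 1) to 17.7 (chromosome 11).

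The window sequences of intronic sites resembled those of intergenic sites more than those of promoters. Over 300 bases at the summit, the mean GC content was 48% at intronic, 49.1% at intergenic and 62.0% at promoter sites, and 41.9% in 2548340 windows of the same introns without a peak. The mean CpG count was 4.19 at intronic sites, 20.9 at promoter sites and 2.38 in the windows without a peak. Repeats masked in the reference took 15.4% of the intronic windows and 30.2% of the windows without a peak. At least 10 CpG were held by 5.20% of intronic windows, by 13.5% of those with a peak in all 6 lists and by 28.0% of the 100 strongest of these, so that the CpG-rich *Arid1b* type made up more of the strong shared sites.

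Motifs were searched as fixed letters on both strands. The ETS letters GGAAGT were in 23.4% of intronic windows and 16.1% of windows without a peak, and in 23.8% of all 300-base RefSeq promoters. Promoter shares given next to these are of all RefSeq promoters, with or without a peak, not of the promoter sites. The longer PU.1 form GAGGAAGT, which contains the ETS letters, was in 3.71% and 1.69% (3.20% of promoters). PU.1 and other ETS factors drive myeloid and lymphoid genes. The RUNX letters TGTGGT were in 24.9% and 20.8% (16.8% of promoters), the E-box CAGCTG in 18.4% and 10.9% (16.3%), and the interferon response element of IRF factors in 7.17% and 4.69% (3.44%). All 5 were more frequent at intronic sites than in the unmarked windows of the same introns. The GATA letters AGATAA went the other way, with 14.3% against 19.1% (11.2% of promoters), as did CCAAT, bound by NF-Y, with 25.4% against 38.0% (37.4%). The C/EBP letters TTGCNNAA, with 12.7% and 13.2% (10.8%), AP-1, TGANTCA, with 9.45% and 8.96% (7.81%), and GFI1, AATCACNGC, with 0.712% and 0.723% (0.920%), were close to their background. The insulator motif of CTCF was in 0.0108% of intronic windows, 0.0074% of windows without a peak and 0.0122% of promoters. GC content differs between these sets as given above, and its part in the motif shares was not tested.

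In all, 3521 of 17465 protein-coding genes with room for a site hosted at least 1, where room is the gene's sequence that is free of exons and more than 2 kb from a TSS. Most hosts had few: 1652 had 1 site, 1326 had 2 to 4, 422 had 5 to 9 and 121 had 10 or more. The last group held 18.4% of the sites. Averaged over all genes there were 1.16 sites per 100 kb of room. The number of host genes was 2833 and 811 in *GFI1-36S* vehicle and curcumin, 2824 and 3004 in *GFI1-36N*, then 2832 and 2147 in *GFI1-KD*.

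The first place by count, *Gm20388* with 153 sites, is a read-through model of 4434882 bp on chromosome 8 that RefSeq does not hold, and 110 of its sites also lie in another coding gene. *Fgfr2*, with 32 sites, is drawn by GENCODE over 2960900 bp and by RefSeq over 104358 bp, and none of its sites lie in the RefSeq body. *Gm20696*, with 24, overlaps *Foxp1* and has no RefSeq body either. Over the whole set, 8974 sites (96.8%) were within a RefSeq coding gene.

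The other leading hosts held from 21 to 33 sites. *Gse1* (chr8:120228456-120581390), whose product is found with a deacetylase complex, and *Foxp1* (chr6:98925338-99522721), a forkhead factor needed in B cell development, had 33 sites each. *Zmiz1*, a coactivator of Notch targets in T cells, had 31 sites and the most per room of these genes, 18.6 per 100 kb. *Etv6*, an ETS repressor that stem cells need, had 28 (13.8 per 100 kb), and *Arid1b*, a subunit of the BAF remodelling complex, had 25. *Cmip* and *Pde4d*, a phosphodiesterase of cyclic AMP, had 22 each. *Pde4d* is long, and had 1.54 sites per 100 kb. *Ptpre*, a phosphatase, *Cdk6*, the kinase of D-type cyclins, and *Runx1* followed with 21 each. *Arhgap26*, which GENCODE draws as 2 models of 19 and 17 sites, had 26 in its single RefSeq body, more than *Arid1b*. With peaks up to 500 bp apart merged, *Foxp1* had 27 sites, *Gse1* 26, *Arid1b* 23, *Etv6* 20, *Pde4d* 19 and *Zmiz1* 18. *Runx1* then had 16, *Cdk6* 14 and *Cmip* 13.

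The order of hosts differed between libraries. In *GFI1-36S* vehicle *Foxp1* led the RefSeq-backed genes with 27 sites, before *Gse1* with 26 and *Cmip* with 22. In *GFI1-36N* vehicle *Zmiz1* and *Foxp1* had 25 each. In *GFI1-36N* curcumin *Gse1* led with 31, before *Etv6* with 27 and *Foxp1* with 26. Between vehicle and curcumin, *Gse1* thus went from 16 to 31 sites in *GFI1-36N* and from 23 to 13 in *GFI1-KD*. All intronic sites went from 6451 to 7074 and from 6617 to 4275 in these pairs. With equal numbers of peaks *Gse1* had 12 sites instead of 33. In *GFI1-KD* vehicle *Gse1* (23), *Etv6* (22) and *Cmip* (21) led, and in *GFI1-KD* curcumin *Foxp1* (19), *Zmiz1* (17) and *Cmip* (17), with *Cdk6* at 15. The library labelled *GFI1-36S* curcumin had a host order of its own. *Zmiz1* led with 13 sites, followed by *Ago2*, the slicing Argonaute protein, and *Celsr1*, a cadherin, with 8 each, and by *Fyb*, an adaptor of T cells and platelets, with 7. *Etv6*, *Cmip* and *Fgfr2* had 2 sites each there.

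**Figure D3:**
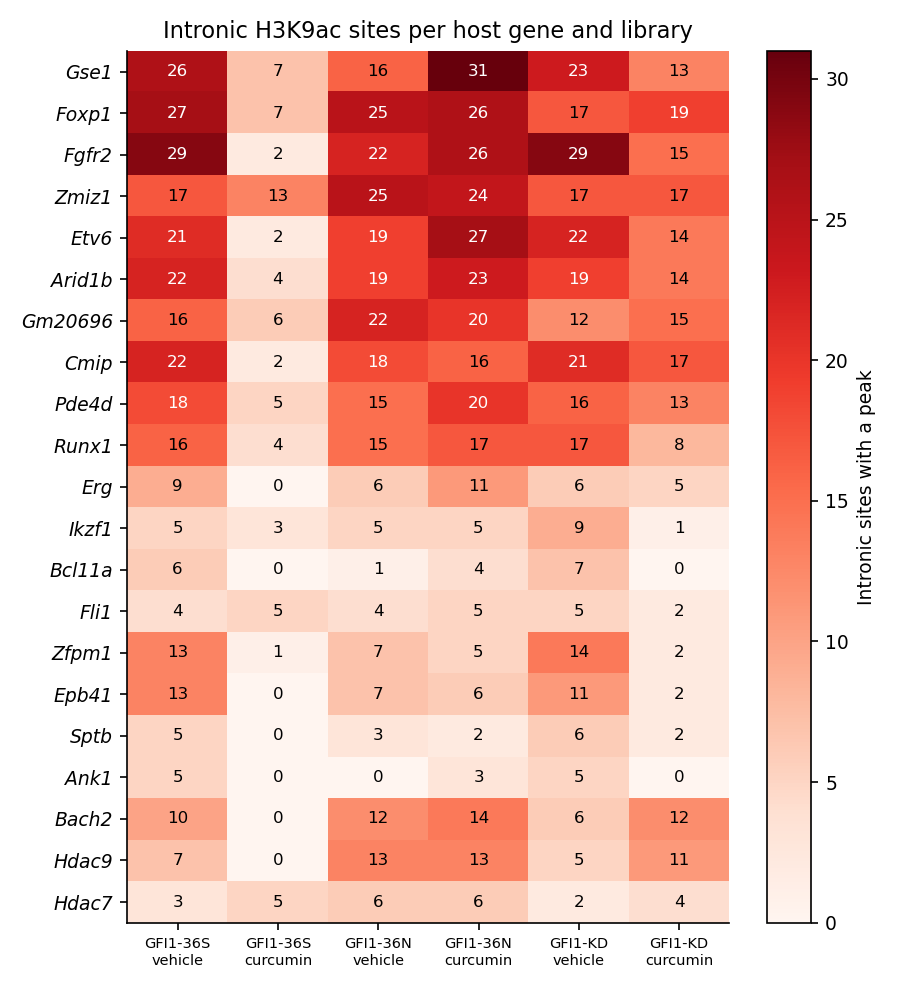
Number of intronic sites with a peak per host gene (rows) and library (columns), for the leading hosts and genes named in the text, Gm20388 left out. Cells give the count and darker red a larger one. Gse1 goes from 16 to 31 with curcumin in GFI1-36N and from 23 to 13 in GFI1-KD. All intronic sites, not plotted, go from 6451 to 7074 and from 6617 to 4275. The erythroid genes Zfpm1 and Epb41 have 2 sites each in GFI1-KD curcumin.

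Among sites with a peak in all 6 lists, the one with the highest median rank was in *Cyth1*, a guanine nucleotide exchange factor of ARF proteins (chr11:118144494-118147221). Its fold enrichment was 28.9 and 10.9 in *GFI1-36S* vehicle and curcumin, 29.7 and 31.2 in *GFI1-36N*, then 39.4 and 36.8 in *GFI1-KD*. It was as strong as a strong promoter in 5 libraries and weaker in *GFI1-36S* curcumin. This site lies in the GENCODE but not in the RefSeq body of *Cyth1*. The *Arid1b* site (chr17:5189193-5190952), 77083 bp from the nearest TSS, had 29.3 and 12.2, 26.9 and 33.6, and 35.3 and 27.1 in the same order. The *Nt5c2* site (chr19:46987018-46989377), in a gene for a nucleotidase, had 26.4 and 4.45, 18.4 and 18.7, and 22.0 and 21.9. It lost the most of the 10 in *GFI1-36S* curcumin and was level in the other pairs. A *Maml3* site (chr3:52069102-52071162), in a gene for a Notch coactivator, went least with that pattern, with 16.1 and 12.8, 19.4 and 26, and 23.1 and 18.5. The other 6 were in *Gm44511*, *Adora3* and *Tmigd3*, *Gm20388* (2 sites), *Gm17655* and *4931414P19Rik*. The RefSeq annotation places a transcript start within 2 kb of 3 of these 10 sites, of 18 of the 100 strongest and of 648 of all 9271 sites (6.99%).

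Genes known for blood enhancers in or near their introns, and *Gfi1*, were examined one by one. Counts written as 3 pairs are the sites with a peak with vehicle and with curcumin, in the order *GFI1-36S*, *GFI1-36N* and *GFI1-KD*. *Runx1*, the master factor of definitive blood stem cells, had 21 sites, with 16 and 4 in *GFI1-36S* vehicle and curcumin, 15 and 17 in *GFI1-36N*, then 17 and 8 in *GFI1-KD*. Its annotated stem-cell enhancer (chr16:92800680-92802489) had a fold enrichment of 9.93 in *GFI1-36S* vehicle, 5.18 and 6.75 in *GFI1-36N*, then 6.99 and 5.81 in *GFI1-KD*, and no peak in *GFI1-36S* curcumin. It was seen in both libraries of each of the other pairs. *Erg*, an ETS factor of stem cells and megakaryocytes, had 11 sites, with 9 and 0, 6 and 11, and 6 and 5. *Fli1*, its close relative, had 6 sites, with 4 and 5, 4 and 5, and 5 and 2, so that *GFI1-36S* curcumin had no fewer of them than any other library. *Ikzf1*, the lymphoid factor Ikaros, had 10 sites, with 5 and 3, 5 and 5, and 9 and 1. *Bcl11a*, the repressor of fetal globin, had 8, with 6 and 0, 1 and 4, and 7 and 0.

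*Gata2*, *Meis1* and *Bcl11b* had no intronic site. For *Gata2* only 0.442 kb of room was left by the distance rule, whereas *Meis1* and *Bcl11b* had 110.8 and 83.4 kb. *Gfi1*, the gene changed in these mice, had 3.63 kb of room and 1 site (chr5:107718313-107718823), which overlaps an enhancer feature of RefSeq. Its rank was 20.5 in *GFI1-36S* vehicle, 51.4 in *GFI1-36S* curcumin and 60.8 in *GFI1-KD* curcumin. It had no peak in *GFI1-KD* vehicle or in either *GFI1-36N* library. In the *GFI1-36S* and *GFI1-36N* mice human cDNA was placed in this locus, and how much of the mouse intron these alleles keep was not given in the sources used here.

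RefSeq lists 1019 experimentally studied enhancers in this build, and 78 intronic sites (0.841%) overlapped one, against 0.233% of promoter and 0.858% of intergenic sites. The set of 78 includes 5 sites of *Zfpm1*, the *Runx1*, *Gfi1* and *Nprl3* sites shown above, and sites of *Ada* and *Vav2* with a peak in all 6 lists. The *Ada* site (chr2:163744677-163745880), which overlaps a thymic enhancer of the adenosine deaminase gene, ranked 52.2 and 6.91 in *GFI1-36S*, 64.0 and 57.3 in *GFI1-36N*, then 56.3 and 38.1 in *GFI1-KD*, vehicle before curcumin.

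The *GFI1-36S* pair was compared first. The question was how intronic acetylation differed between vehicle and curcumin where GFI1 is of the common form. Of 6756 intronic sites with a peak in either library, 941 had one in both, 5491 with vehicle alone and 324 with curcumin alone. Vehicle-alone sites were 81.3% of the intronic sites beside 57.2% of all consensus sites of the pair, and curcumin-alone sites 4.80% beside 3.07%. Intergenic sites were close to the intronic ones, with 80.5% vehicle-alone and 3.23% curcumin-alone, and promoter sites had 27.4% and 1.73%. Of the intronic sites that differed, 94.4% (93.8 to 95) were vehicle-alone, as were 94.9% of all consensus sites that differed. The library labelled curcumin is the one that stands apart, and if the list names were followed the share would be 5.57%. With the same number of peaks taken from every list it was 86.2%. Among vehicle-alone sites the strongest was in *Baz1a* (chr12:54992713-54994644), a chromatin remodelling subunit. Its fold enrichment was 25 in *GFI1-36S* vehicle, 25 and 28.6 in *GFI1-36N*, then 12 and 18 in *GFI1-KD*. The strongest curcumin-alone sites were 2 neighbouring ones in *Camk2b* (chr11:6007473-6007800 and chr11:6006806-6007348), with 12.1 and 9.62, and 1 in *Cerk*, ceramide kinase (chr15:86167492-86169832), with 10.3. The first *Camk2b* site had a peak elsewhere in *GFI1-36N* vehicle alone.

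At the 941 intronic sites in both *GFI1-36S* libraries, strength was compared after the median log2 ratio of all shared consensus sites, -0.70, had been subtracted. On that scale 39.4% of the intronic sites were at least 1.5-fold higher with curcumin, beside 15.3% of all shared sites, and 6.06% at least 1.5-fold lower, beside 12.1%. Of the intergenic sites in both libraries, 28.8% were higher and 14.6% lower by that measure. The centred median of the intronic sites was 0.44. Before centring, the median fold enrichment of these sites was 5.06 with vehicle and 4.11 with curcumin. Only a site called in both lists enters, and a weak site can enter only if it stayed above the threshold.

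The *GFI1-36N* pair went the other way. Of 8329 intronic sites in the pair, 5196 were in both libraries, 1255 with vehicle alone (15.1%, beside 8.55% of all consensus sites) and 1878 with curcumin alone (22.5%, beside 16.3%). Of the intergenic sites, 9.42% were vehicle-alone and 21.4% curcumin-alone. Vehicle-alone sites made up 40.1% (38.4 to 41.8) of the intronic sites that differed. The share was 34.3% over all consensus sites and 26.9% over promoter sites. The curcumin list of this pair was the longest of the 6. With equal numbers of peaks the vehicle-alone share of intronic sites was 62.8%, and the direction turned. With peaks of a −log10 q of at least 5 it was 45.9%, which did not turn. The part of list length in this direction was not tested. The strongest curcumin-alone site was in *Acss2*, the acetyl-CoA synthetase of cytosol and nucleus (chr2:155537992-155538450), with a fold enrichment of 11.4. It had a peak elsewhere only in *GFI1-KD* curcumin, with 5.07. Sites in *Tcf4* and *Tmem108* (chr9:103739236-103740324) followed with 10.6 each. The strongest vehicle-alone sites were in *Camk2b*, with 7.62, *Sdc3*, a syndecan, with 7.48, and *Tmem47*, with 7.19. At sites in both libraries, a shift of 0.20 was subtracted. Then 4.14% of the intronic ones were at least 1.5-fold higher with curcumin (5.59% of all, 5.89% of intergenic). At least 1.5-fold lower were 10.1% (7.0% of all, 9.69% of intergenic).

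In *GFI1-KD*, fewer intronic sites had a peak with curcumin. Of 7494 sites in the pair, 3398 were in both libraries, 3219 with vehicle alone (43.0%, beside 25.9%) and 877 with curcumin alone (11.7%, beside 8.15%). Of the intergenic sites, 29.1% were vehicle-alone and 14.0% curcumin-alone. Vehicle-alone sites were 78.6% (77.3 to 79.8) of the intronic sites that differed, against 76.0% of all consensus sites. With equal numbers of peaks the share was 55.2%, in the same direction. The strongest vehicle-alone site was in *Crtac1* (chr19:42305917-42308059), with a fold enrichment of 16.1. It had a further peak in *GFI1-36N* vehicle, with 3.6. The 3 strongest curcumin-alone sites lay in *Umad1* (chr6:8336157-8338760), *Adk*, adenosine kinase (chr14:21144292-21156922), and *Kifap3*, a kinesin adaptor (chr1:163893222-163900226), with 20.2, 19.5 and 19.1. All 3 also had peaks in *GFI1-36S* vehicle and in both *GFI1-36N* libraries, so *GFI1-KD* vehicle and *GFI1-36S* curcumin were the libraries without one. At sites in both libraries, a shift of -0.14 was subtracted. Then 15.7% of the intronic ones were at least 1.5-fold higher with curcumin (10% of all, 18.4% of intergenic). At least 1.5-fold lower were 7.5% (6.86% of all, 7.08% of intergenic).

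**Figure D4:**
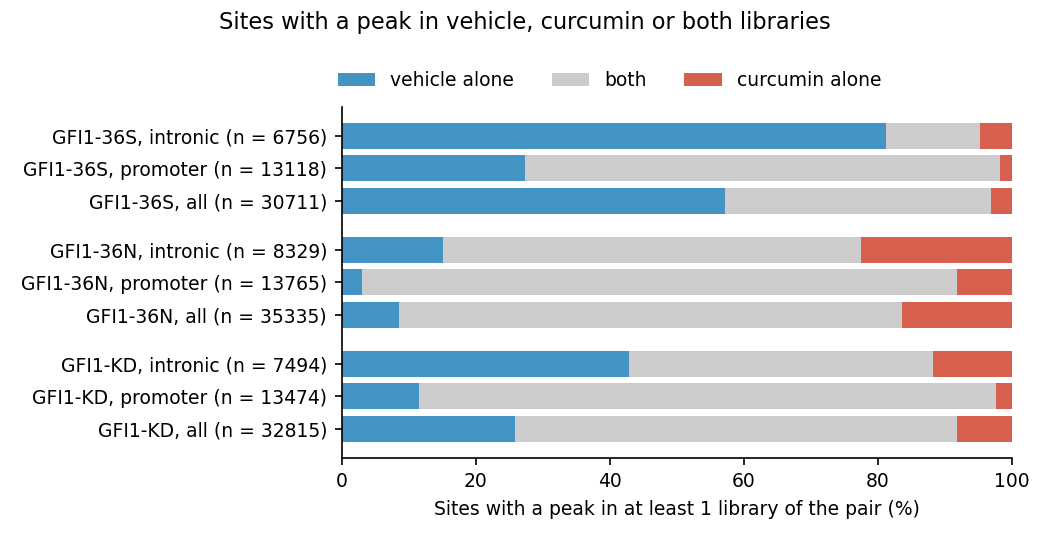
Sites that either library of a pair called, split into vehicle alone (blue), both (grey) and curcumin alone (red), in % of n, for intronic, promoter and all consensus sites of each genotype. Among intronic sites the vehicle-alone part is 81.3% in GFI1-36S, 15.1% in GFI1-36N and 43.0% in GFI1-KD.

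In each pair the intronic sites that differed were weaker than those in both libraries. The vehicle-alone sites had a median rank of 38.2, 21.4 and 28.6 in the vehicle libraries of *GFI1-36S*, *GFI1-36N* and *GFI1-KD*, and the sites in both had 55.9, 45.0 and 52.2. Side by side, 925 sites were curcumin-alone in *GFI1-36N* and vehicle-alone in *GFI1-KD*, and 212 were the reverse. A further 600 were vehicle-alone in both pairs and 184 curcumin-alone in both. The sides were of unequal size. The *GFI1-36N* pair had more curcumin-alone sites (1878) than vehicle-alone ones (1255). The *GFI1-KD* pair had more vehicle-alone sites (3219) than curcumin-alone ones (877). How far these totals account for the shared counts was not tested, and only intronic sites were counted this way. The PU.1 letters were in 3.17% of vehicle-alone and 5.25% of curcumin-alone sites in *GFI1-KD*. The order was the other way round in *GFI1-36N*, with 4.46% and 3.14%, and in *GFI1-36S*, with 3.66% and 2.47%.

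Grouped by gene lists, the introns of erythroid and megakaryocytic genes held far fewer sites with curcumin than with vehicle in *GFI1-36S* and *GFI1-KD*. The 18 genes held 48 sites in 6 genes, 8.50 per 100 kb of room. Of these 48, 43 had a peak in *GFI1-36S* vehicle and 2 in *GFI1-36S* curcumin, 18 and 21 in *GFI1-36N*, then 43 and 6 in *GFI1-KD*. The *GFI1-KD* curcumin count was 14.0% of vehicle, while over all intronic sites it was 64.6%. In *GFI1-36S* it was 4.65% beside 19.7%, and in *GFI1-36N* 116.7% beside 109.7%. A site needed 2 lists to be counted, and 19 of the 48 had a peak in at least 3. Over those 19 the gap was smaller in proportion, with 18 and 6 in *GFI1-KD* (33.3% beside 77.0% over all sites in at least 3 lists) and 18 and 2 in *GFI1-36S* (11.1% beside 20.3%). With equal numbers of peaks few sites of the list were left, 6 and 3 in *GFI1-KD* (50% beside 94.3% over all sites), 5 and 1 in *GFI1-36S* (20% beside 38.9%) and 4 and 2 in *GFI1-36N*, where the direction turned. With peaks of a −log10 q of at least 5 the *GFI1-KD* counts were 23 and 4, and the *GFI1-36N* counts 10 and 8, which also turned. With peaks up to 500 bp apart merged the list held 22 sites instead of 48. The counts were then 21 and 5 in *GFI1-KD* (23.8% beside 68.4% over all sites) and 19 and 1 in *GFI1-36S* (5.26% beside 20.7%). In *GFI1-36N* they were 9 and 13. In bulk marrow, fewer cells of a lineage and less acetylation per cell cannot be told apart.

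*Zfpm1*, the GATA1 cofactor FOG1, had 14 sites and 32.2 per 100 kb of room, with 13 and 1 in *GFI1-36S*, 7 and 5 in *GFI1-36N*, then 14 and 2 in *GFI1-KD*. Of its 5 sites on a RefSeq enhancer, the strongest (chr8:122314745-122315857) was ranked 60.4 in *GFI1-36S* vehicle, 60.2 and 71.2 in *GFI1-36N*, then 55.1 and 62.6 in *GFI1-KD*. It was kept in *GFI1-KD* curcumin, and another enhancer of the same gene (chr8:122312197-122313433) was seen in the *GFI1-36S* and *GFI1-KD* vehicle libraries alone. *Epb41*, the membrane skeleton protein 4.1, had 14 sites, with 13 and 0, 7 and 6, and 11 and 2. *Sptb*, beta-spectrin, had 5 and 0, 3 and 2, and 6 and 2, and *Ank1*, erythroid ankyrin, 5 and 0, 0 and 3, and 5 and 0. These 4 genes had fewer sites with curcumin in *GFI1-36S* and *GFI1-KD*, and in *GFI1-36N* they moved by 3 sites at most. *Klf1*, an erythroid factor, did not follow them, and its single site had 1 and 1, 0 and 1, and 0 and 0. The alpha-globin enhancer in *Nprl3* (chr11:32243957-32245745), which is outside the list, ranked 61 in *GFI1-36S* vehicle, 36.0 and 28.5 in *GFI1-36N* and 69.4 in *GFI1-KD* vehicle. It had no peak in the *GFI1-36S* and *GFI1-KD* curcumin libraries.

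Promoters of the same 18 genes with a peak numbered 16 and 5 in *GFI1-36S*, 15 and 14 in *GFI1-36N*, then 17 and 11 in *GFI1-KD*. Over all promoter sites the share with a peak was 91.1% and 67.3%, 89.4% and 94.4%, and 93.0% and 84.3% in the same order. The alpha-globin gene *Hba-a1* was marked at its promoter by each vehicle library and by no curcumin library. *Klf1*, *Nfe2*, *Zfpm1*, *Tfrc* and *Epb41* had one in all 6. The part of erythroid cell content in these counts was not tested.

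The other lists were mixed. Stem and progenitor factors had 70 sites in 6 genes, led by *Etv6* (28), *Runx1* (21), *Erg* (11) and *Fli1* (6), with 52 and 11, 45 and 62, and 54 and 29 sites. Their *GFI1-36N* curcumin count was 137.8% of vehicle, but with equal numbers of peaks it was 84.6% (13 and 11). The *GFI1-36N* direction turned there for the B lineage list (16 and 11), the T lineage list (2 and 6) and the myeloid list (4 and 2) as well. The B lineage list had 54 sites, with 41 and 11, 41 and 45, and 26 and 34. It had more sites under curcumin in *GFI1-KD* (130.8% of vehicle). Its main genes were *Foxp1* (33 sites; 17 and 19 in *GFI1-KD*) and *Bach2*, a repressor of lymphoid cells (14 sites; 6 and 12), followed by *Aff3* (4). The T lineage list had 27 sites, among them *Ets1* (6), *Fyn* (5) and *Themis* (4), with 16 and 12, 20 and 19, and 11 and 6. In *GFI1-36S* curcumin its count was 75% of vehicle beside 19.7% over all sites, in the library with peaks at all T lineage promoters.

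Myeloid genes had 14 sites, with 6 and 0, 9 and 11, and 11 and 6, of which *Spi1*, the gene of PU.1, held 4, *Csf2rb* 3 and *Itgam* 2. These genes are short, and the density was 7.54 per 100 kb. The acetyltransferases, deacetylases and corepressors held 47 sites, with 27 and 10, 43 and 42, and 27 and 27, and thus the same number with and without curcumin in *GFI1-KD*. Their *GFI1-KD* curcumin count was above vehicle with at least 3 lists (122.7%), at a −log10 q of at least 5 (129.4%) and with equal numbers of peaks (140%). Class II deacetylases led: *Hdac9* had 13 sites (5 and 11 in *GFI1-KD*), *Hdac4* 10 (9 and 6) and *Hdac7* 6 (2 and 4), before *Kat6a* with 4. Interferon-stimulated genes had only 5 sites in all, with 3 and 0, 4 and 2, and 4 and 0. Over all intronic sites the curcumin count was 19.7% of vehicle in *GFI1-36S* and 64.6% in *GFI1-KD*. Of the promoters of 24 interferon-stimulated genes, 23 and 17, 23 and 23, and 23 and 20 had a peak. Long neuronal genes, chosen as a class not used in blood, had 3 sites in 27891 kb of room, 0.0108 per 100 kb. Of the promoters of these 20 genes, 2 had a peak in every library, those of *Dlg2* and *Magi2*.

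**Figure D5:**
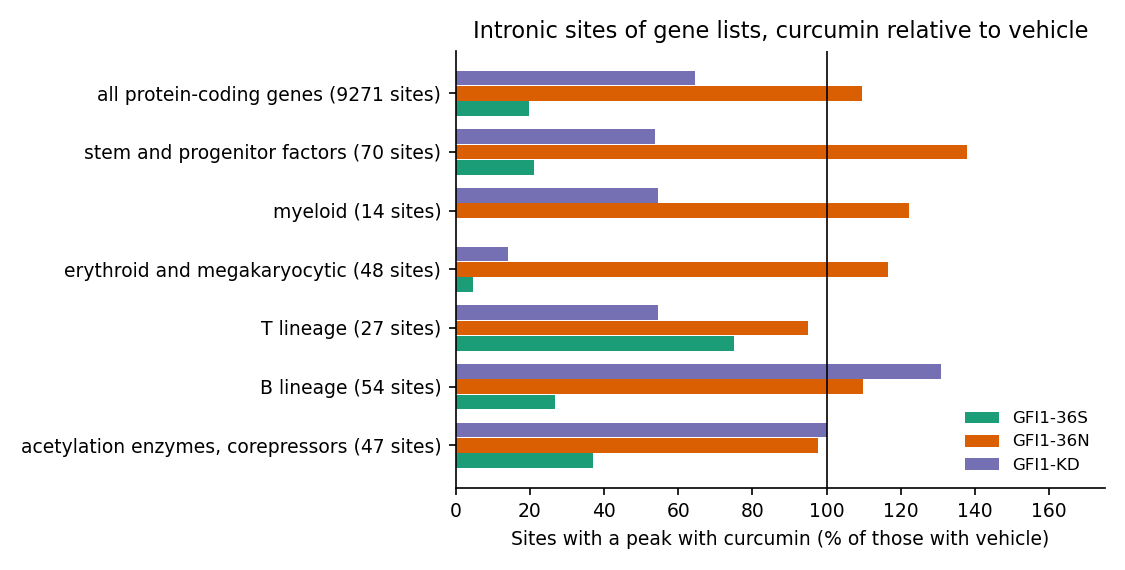
Intronic sites with a peak in the curcumin library as a percentage of those in the vehicle library, for all intronic sites and 6 gene lists (total sites in brackets), by genotype, with a line at 100%. The erythroid and megakaryocytic list stands at 4.65% in GFI1-36S and 14.0% in GFI1-KD, below all intronic sites at 19.7% and 64.6%. The B lineage list is at 130.8% in GFI1-KD. Over sites in at least 3 lists, not plotted, the erythroid values are 11.1% and 33.3%, beside 20.3% and 77.0%.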

How the data were processed

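H3K9ac ChIP-seq (antibody ab4441) was made from frozen whole bone marrow, 1 library per group. Per the labels, the authors' processing notes name Trim Galore, BWA, SAMtools, Picard, MACS2 and deepTools, and build mm10; settings were not given in the sources used here. The deposited lists give each peak's fold enrichment, a ratio over the local background, and −log10 p and −log10 q values, without read counts, so library depth is unknown. Fragments at summits were recovered from fold enrichment and p (tolerance 0.002 on the −log10 p scale), and the steps were tested on simulated data.

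Peaks that overlapped or touched were merged with Python 3.11.15, pandas 2.3.3 and numpy 2.4.6. A site's strength in a library is that of its strongest peak there, and ranks run within a list. Sites were classed with GENCODE M21, and RefSeq GRCm38.p6 gave sequences, enhancers and a second annotation. Intervals are Wilson intervals (scipy 1.17.1). Named were the 10 leading hosts and 5 per library, the 10 sites of highest median rank in all 6 lists, the 3 strongest sites on each side of a pair, 9 textbook genes and the 4 leading genes of a list. *Nprl3*, *Ada*, *Vav2*, *Arhgap26*, *Klf1* as an exception and the single *Zfpm1* sites were added after their values were seen. The members and lists were chosen with earlier results of these data known. Alternatives were the number of lists, the TSS distance, a −log10 q of at least 5, equal peak numbers, autosomes alone, coding annotation alone, the summit alone, merging within 500 bp, leaving out *GFI1-36S* curcumin, exchanged *GFI1-36S* treatments and −log10 p as strength. Of the list of 25 interferon-stimulated names, 24 matched the annotation. Values of some single genes are not reported here.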

Additional observations from a re-analysis of the deposited data

Results flagged for a closer look

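The number of intronic sites with a peak moved in opposite directions between genotypes. From vehicle to curcumin it rose by 623 in *GFI1-36N* (6451 to 7074), fell by 2342 in *GFI1-KD* (6617 to 4275) and fell by 5167 in *GFI1-36S* as labelled (6432 to 1265). Each direction rests on 1 library against 1, and the difference between genotypes was not tested. The *GFI1-36N* direction turned when equal numbers of peaks were taken.

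For the introns of erythroid and megakaryocytic genes the number fell by 41 in *GFI1-36S* (43 to 2), fell by 37 in *GFI1-KD* (43 to 6) and rose by 3 in *GFI1-36N*, a direction that turned at the stricter q and with equal numbers of peaks. This difference was not tested either.

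The library labelled *GFI1-36S* curcumin held 3 peaks on chromosome Y, and the other 5 lists held none. Intronic sites were not called there.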

How the results depend on the processing

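No paired analysis was possible because each group has 1 library and no result comes from a test. The number of intronic sites was 6008 with at least 3 lists, 5659 with a −log10 q of at least 5 and 2986 with equal numbers of peaks. It stayed within 1.5 times of 9271 under the other alternatives, including 8623 sites also more than 2 kb from every RefSeq transcript start. Their share of the consensus sites was 20.6%, 19.7% and 14.2% under the first 3 of these, 17.3% at more than 5 kb from a TSS, 26.5% with coding annotation alone, 28.6% by the summit alone, 22.4% with peaks merged within 500 bp and 22.9% under the RefSeq distance. The vehicle-alone share was 96.8% in *GFI1-36S* with at least 3 lists, 86.2% with equal numbers and 5.57% with treatments exchanged. In *GFI1-36N* it was 45.9% at the stricter q and 62.8%, turned in direction, with equal numbers. In *GFI1-KD* it was 75.4% with at least 3 lists, 76.2% beyond 5 kb, 66.9% at the stricter q, 55.2% with equal numbers and 77.1% with merging. The share above the median strength of the list, 34.0% as the median over libraries, was 10.8% with equal numbers, because those lists hold only the stronger peaks of each library. The erythroid counts of *GFI1-36N* with curcumin were 80.0% of vehicle at the stricter q and 50% with equal numbers, both turned. With at least 3 lists and with equal numbers they were 33.3% and 50% in *GFI1-KD* (14.0% in the report) and 11.1% and 20% in *GFI1-36S* (4.65%). With merging within 500 bp they were 23.8% in *GFI1-KD* and 5.26% in *GFI1-36S*. Without *GFI1-36S* curcumin there were 9066 sites, a share of 24.4%, and vehicle-alone shares of 40.1% and 78.4% in *GFI1-36N* and *GFI1-KD*. Other than where said, the cause of a change was not tested. The RefSeq alternatives and the erythroid counts were chosen after seeing the data.

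The limits are those of 1 library per group with peak calls alone. Counting error is the only error covered, the sites that differed within a pair were the weaker ones, and list length differs between libraries.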

Other observations

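The 3 strongest intronic sites with a peak in *GFI1-KD* curcumin and none in *GFI1-KD* vehicle were broad and strong elsewhere. The *Adk* region spanned 12631 bp and had a fold enrichment of 16.5 in *GFI1-36S* vehicle and 23.9 and 29.6 in the *GFI1-36N* libraries. The *Kifap3* region spanned 7005 bp, with 7.14, 15.0 and 16.9 in the same libraries, and the *Umad1* region 2604 bp, with 12.2, 15.8 and 19.4. Their ranks in these libraries were 68.4 to 95.7.

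*Hdac7*, a deacetylase of thymocytes and B cells, had 6 sites in 30.3 kb of room and a peak at 5 of them in the library labelled *GFI1-36S* curcumin, more than the 3 in *GFI1-36S* vehicle. *Hdac9* and *Hdac4* had none there.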
